A study of Mus musculus with 26 samples.

Results

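Prostaglandins are lipid signals made from arachidonic acid in a short chain of enzymes. Cytosolic phospholipase A2 (Pla2g4a) frees arachidonic acid from membrane phospholipids, and the cyclooxygenases Ptgs1 (generally constitutive) and Ptgs2 (inducible, also called COX-2) convert it to prostaglandin H2. Ptges, the inducible microsomal prostaglandin E synthase, turns prostaglandin H2 into prostaglandin E2, and Ptgis turns it into prostacyclin. Prostaglandin E2 acts on cells through receptors that include Ptger2 (EP2) and Ptger4 (EP4), both of which raise cyclic AMP, and Hpgd starts its breakdown by oxidation. Fibroblasts are a well-known source of prostaglandin E2, and Ptgs2 was described early on as a gene switched on by the v-src kinase in cultured fibroblasts. The 8 genes described here are Pla2g4a, Ptgs1, Ptgs2, Ptges, Ptgis, Ptger2, Ptger4 and Hpgd. They were chosen by name, with earlier results of these data known. Every probe set that the platform annotation assigns to 1 of them alone was taken. That gave 12 of 45101 probe sets on the array, for 7 of the 8 genes. No single-gene probe set was listed for Ptgs1, so it has no value here.

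The cells were immortalized mouse embryonic fibroblasts, that is, embryonic fibroblasts in permanent culture. Per the labels there were 3 parental lines, WA, WB and WC. Each line was infected with the pBabe-puro retroviral vector, either empty, carrying human c-myc (the gene of a growth-promoting transcription factor) or carrying v-src (a constitutively active tyrosine kinase first found in Rous sarcoma virus, though the labels call this insert human). All 9 groups therefore share immortalization and infection by a vector with a puromycin resistance gene, and no uninfected cells were compared. How the lines were immortalized, whether a line is 1 clone, how long after infection RNA was taken and how much c-myc or v-src protein the cells made are not given in the sources used here. Per the series text, the arrays served to test an expression signature, made in breast cancer cell lines that grow without anchorage, on transformed fibroblasts. There were 3 arrays for 8 of the groups and 2 for WB with v-src, which makes 26 arrays. Nothing states that replicate arrays came from separate cultures, so p-values within a line measure only the spread between these arrays, which may be technical.

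Values are MAS5 signals, linear brightness values scaled to the same trimmed mean of 500 on every array, with array medians from 89.0 to 134.6. No scan dates or batches were given, and detection calls were not used, so a signal around or below the array medians is read as low and not as absent. Pairs of arrays in the same group correlated at 0.956 to 0.979 on the log2 scale, over the probe sets above the 40th percentile of mean level. The lowest mean correlations with the own group were those of WC c-myc replicate 1 (0.959), WC c-myc replicate 3 (0.963) and WA empty vector replicate 3 (0.964). All 11 fibroblast markers, including the collagens, were above the lowest array median on at least 1 array, and their summed signal ran from 95950 to 171725. That sum lay between 111066 and 171725 with the empty vector, between 95950 and 114240 with c-myc and between 96365 and 121782 with v-src. Single fibroblast markers differed more than the sum. The mean signal of Dcn, a matrix proteoglycan, was 3166 with the empty vector, 188 with c-myc and 11792 with v-src. Lum averaged 308, 95.6 and 914 in the same order, and the receptor Pdgfra 2162, 293 and 3480, so that all 3 had their lowest mean with c-myc and their highest with v-src, as Pla2g4a does below. The other fibroblast markers, Col1a1, Col1a2, Col3a1, Thy1, Pdgfrb, Fn1, Vim and S100a4, did not follow that order. Each had its highest mean with the empty vector. Col1a1 averaged 19896, 15295 and 9338, and Pdgfrb 3778, 1721 and 985, both lowest with v-src. Of the 8 macrophage and blood markers, Ptprc and Itgam never exceeded 71.1 and 86.6, both below the lowest array median. The others exceeded it on at least 1 array. Csf1r ran from 224 to 852, above every array median, Adgre1 from 90.5 to 249 and Lyz2 from 72.1 to 276. Cd68 ran from 66.7 to 169 and Tyrobp from 16.7 to 133. The sum of the 8 was 781 to 1685 in empty vector cells, 934 to 2096 in c-myc cells and 1315 to 4020 in v-src cells, where Cd14 alone reached 2899. None of the 4 epithelial markers was below the lowest array median on every array. Their sum was 767 to 2821 in empty vector cells, 440 to 3792 in c-myc cells and 1205 to 5956 in v-src cells, and Epcam, an epithelial adhesion molecule, ran from 97.2 to 5624. The 5 mast cell markers summed to between 182 and 480 and the 4 endothelial markers to between 264 and 498. Among the epithelial markers Epcam had means of 1078, 1310.4 and 3096 for empty vector, c-myc and v-src, while Krt8 averaged 204, 195 and 158, Cdh1 59.1, 46.4 and 76.8, and Krt18 68.7, 127 and 91.3. The part of Cd14, Epcam and these fibroblast markers in the differences given below was not tested.

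Ptgs2 and Pla2g4a are neighbours on mouse chromosome 1, with no other protein-coding gene listed between them. The start of Ptgs2 is shown because its c-myc difference varied most between lines, and that of Ptges because it had the largest v-src differences. Sequences and coordinates are those of RefSeq on GRCm38.p6, used for annotation alone. The Ptgs2 stretch is the 250 bases before its annotated start, chr1:150099781-150100030 on the plus strand, with the C/EBP palindrome TTGCGCAA in capitals beginning 69 bases before the start.

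Ptgs2 upstream: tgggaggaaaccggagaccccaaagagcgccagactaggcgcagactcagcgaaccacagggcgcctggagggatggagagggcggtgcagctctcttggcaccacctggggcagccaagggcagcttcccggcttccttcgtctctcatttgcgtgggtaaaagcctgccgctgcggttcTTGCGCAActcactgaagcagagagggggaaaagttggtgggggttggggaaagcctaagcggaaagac

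Just after the annotated start, chr1:150100033-150100062 on the plus strand holds a short cyclic AMP response element, CGTCA. It overlaps an E-box, CACGTG, the letters that Myc proteins are known to bind. Where transcription of Ptgs2 starts in these cells was not tested, so the run may lie before or after that point. The joined run is in capitals.

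Ptgs2 E-box: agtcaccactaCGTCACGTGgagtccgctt

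The Ptges stretch is the 250 bases before its annotated start, chr2:30903298-30903547, written along the minus strand on which the gene lies. Its pair of GC boxes, GGGCGG, is in capitals and begins 53 and 42 bases before the start.

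Ptges upstream: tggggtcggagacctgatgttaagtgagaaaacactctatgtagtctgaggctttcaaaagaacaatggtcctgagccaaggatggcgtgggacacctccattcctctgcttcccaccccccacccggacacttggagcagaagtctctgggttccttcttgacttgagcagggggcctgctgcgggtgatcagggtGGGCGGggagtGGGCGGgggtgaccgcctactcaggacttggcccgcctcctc

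Motifs were searched on both strands of windows from 250 bases before to 50 bases after each start. Of 32851 such windows over all genes, 0.183% held TTGCGCAA, 7.15% the E-box CACGTG, 20.8% the short element TGACG or its reverse complement, 1.79% the full element TGACGTCA, 7.81% the AP-1 letters TGANTCA and 35.7% the GC box GGGCGG. The Ptgs2 window also held 1 GC box, 170 bases before the start and not capitalized here, the Hpgd window held 1 and the Ptger4 window 4. None of these letters were found in the windows of Pla2g4a, Ptger2 and Ptgs1. Ptgis had no window and was not searched. These matches describe letters and were not set against any binding data.

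Ptgs2 carried high signals in every group, and the direction of its c-myc difference depended on the line. It has 2 probe sets, 1417262_at and 1417263_at. On 1417262_at the 3 WA arrays read 4547, 4210 and 4558 with the empty vector, 1108, 805 and 909 with c-myc, and 10214, 10442 and 9275 with v-src. In WA the 3 groups did not overlap: c-myc lay lowest and v-src highest. In WB the empty vector arrays read 1538, 1977 and 1420, the c-myc arrays 6344, 6192 and 6524, and the v-src arrays 6559 and 6571. Here c-myc and v-src both lay far above the empty vector and within a factor of 1.03 of each other in their means. In WC the arrays read 1612, 3219 and 4886 with the empty vector, 787, 1874 and 2920 with c-myc, and 4580, 3817 and 5065 with v-src. The WC groups spread widely and the empty vector overlapped both others, while v-src and c-myc stayed apart. In WC the empty vector and c-myc signals both rose with replicate number, and c-myc was lower at each number. What the replicate numbers stand for is not stated in the labels.

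**Figure D1:**
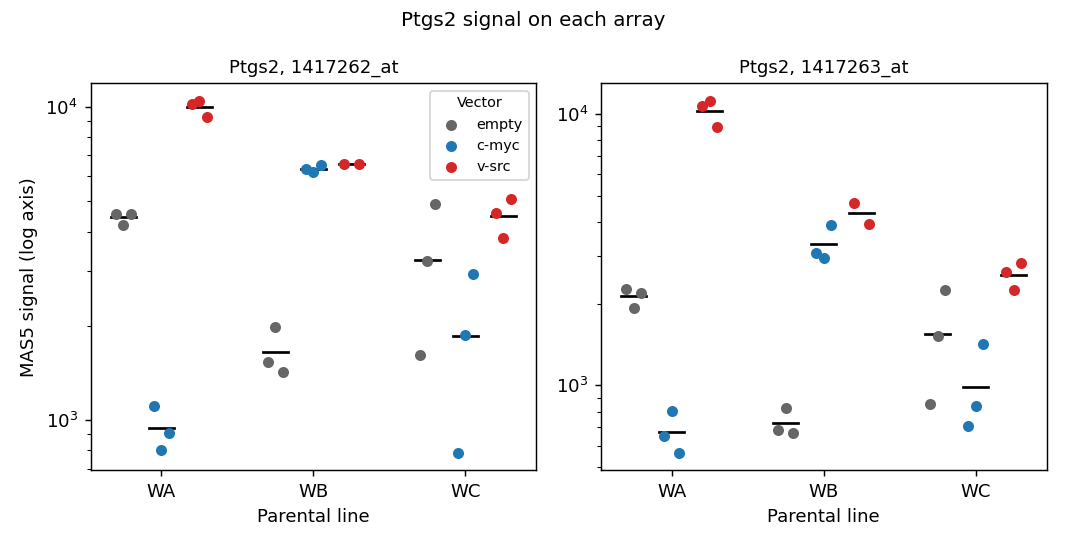
Signal of both Ptgs2 probe sets on each of the 26 arrays (log axis), by line and vector. Points are arrays and bars are group means; in WA c-myc lies below and in WB above the empty vector, while v-src lies above the empty vector in both.

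The group means followed the same layout. On 1417262_at the mean signal in WA was 4438 ± 198 (SD, n = 3 arrays) with the empty vector, 941 ± 154 (n = 3) with c-myc and 9977 ± 619 (n = 3) with v-src, so c-myc was 4.72-fold lower and v-src 2.25-fold higher. In WB the means were 1645 ± 294 (n = 3), 6353 ± 166 (n = 3) and 6565 ± 8.12 (n = 2), which put c-myc 3.86-fold and v-src 3.99-fold above the empty vector. In WC they were 3239 ± 1637 (n = 3), 1860.4 ± 1067 (n = 3) and 4487 ± 629 (n = 3). The second probe set gave the same order of groups in each line. There, WA means were 2129 with the empty vector, 674 with c-myc and 10273 with v-src. The matching WB means on it were 726, 3312 and 4312, and the WC means 1545, 989 and 2562.

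Within lines, limma was fitted to log2(signal + 23) on all 26 arrays and 45037 probe sets, with p-values adjusted by Benjamini-Hochberg over all of them, and a probe set was called at an adjusted p below 0.05. On this scale Ptgs2 fell with c-myc in WA, with a difference of -2.22 (SE 0.32, adjusted p = 1.10e-05) on 1417262_at and of -1.64 (SE 0.24, adjusted p = 1.61e-05) on 1417263_at. In WB the same probe sets rose by 1.95 (SE 0.32, adjusted p = 0.000123) and 2.15 (SE 0.24, adjusted p = 1.27e-06). In WC the differences were -0.84 (SE 0.32, adjusted p = 0.0710) and -0.59 (SE 0.24, adjusted p = 0.101), neither called. The fit took no account of replicate number. Both WC differences passed the threshold when WC empty vector replicate 1 was left out (adjusted p = 0.00422 and 0.00273) or WC c-myc replicate 3 was left out (0.00519 and 0.0132). A direct limma F test of whether the c-myc difference was the same in the 3 lines gave an adjusted p of 5.00e-06 for 1417262_at, over a range of line differences of 4.17, and 3.41e-07 for 1417263_at, over a range of 3.79.

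With v-src, Ptgs2 rose in WA by 1.16 (SE 0.32, adjusted p = 0.0137) on 1417262_at and by 2.26 (SE 0.24, adjusted p = 2.61e-07) on 1417263_at. It rose in WB by 2.00 (SE 0.35, adjusted p = 0.000256) and 2.53 (SE 0.27, adjusted p = 2.57e-07). In WC only 1417263_at was called, at 0.82 (SE 0.24, adjusted p = 0.0203), and it lost the call without WC empty vector replicate 1, WC v-src replicate 1 or WC v-src replicate 3 (0.0617 to 0.205). The WC value of 1417262_at was 0.60 (SE 0.32, adjusted p = 0.267). It was called without WC empty vector replicate 3 (adjusted p = 0.0463). The v-src difference varied between lines on 1417263_at (range 1.71, F test adjusted p = 0.00483). For 1417262_at the range was 1.40 (adjusted p = 0.194).

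Among the empty vector cells, Ptgs2 was lower in WB than in WA on both probe sets, at -1.43 (adjusted p = 0.00266) and -1.53 (adjusted p = 6.96e-05). On 1417263_at it was higher in WC than in WB by 0.97 (adjusted p = 0.00548), which was lost without WC empty vector replicate 3 (0.0614). The lowest empty vector mean on both probe sets was that of WB, the line in which Ptgs2 rose with c-myc. That rise is measured from these same empty vector arrays, so the low mean and the rise are not independent. Of the variance of the 9 group means on 1417262_at, line alone held 4.62%, vector alone 43.3% and their combination 52.0%. On 1417263_at these shares were 5.85%, 53.9% and 40.2%.

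Pla2g4a, which supplies the substrate of Ptgs2, kept 1 order of vectors in all 3 lines. It has 1 probe set. In WA its signals were 2394, 2289 and 2440 with the empty vector, 935, 1065 and 1065 with c-myc, and 4452, 4344 and 4001 with v-src. In WB they were 2097, 1884 and 1796, then 1503, 1439 and 1518, then 2648 and 2449.6. In WC they were 1511, 2015 and 2461, then 1024, 1531 and 2103, then 2778, 2432 and 2780. The means were lowest with c-myc and highest with v-src in each line, the groups did not overlap in WA and WB, and in WC the empty vector arrays overlapped both others. The WC empty vector and c-myc signals both rose with replicate number, with c-myc lower at each number. Within lines Pla2g4a fell with c-myc in WA, with a difference of -1.20 (SE 0.17, adjusted p = 7.17e-06), a 2.32-fold lower mean signal. Its differences of -0.37 in WB (SE 0.17, adjusted p = 0.182) and -0.39 in WC (SE 0.17, adjusted p = 0.120) were not called, and the WC one was called without WC empty vector replicate 1 or WC c-myc replicate 3 (adjusted p = 0.00422 and 0.0209). Pla2g4a rose with v-src in WA by 0.84 (SE 0.17, adjusted p = 0.000837), a 1.80-fold higher mean. The v-src values of 0.40 in WB (SE 0.19, adjusted p = 0.195) and 0.44 in WC (SE 0.17, adjusted p = 0.0861) were not called, the latter unless WC empty vector replicate 3, WC c-myc replicate 1 or WC c-myc replicate 3 was left out (adjusted p = 0.0174 to 0.0268). The c-myc difference varied between lines (range 0.83, F test adjusted p = 0.0365), a call lost without any 1 of 12 arrays (0.0509 to 0.107). Vector alone held 79.1% of the variance of its 9 means.

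Ptges, the last enzyme on the way to prostaglandin E2, rose with v-src in WA and WB on all 3 of its probe sets, and none was called with c-myc in any line. These are 1439747_at, 1449449_at and 1449450_at. On 1449450_at the WA arrays read 326, 267 and 343 with the empty vector, 306, 354 and 259 with c-myc, and 3491, 2976 and 2672 with v-src. In WB they read 274, 256 and 265, then 189, 142 and 237, then 1019 and 852. In WC they read 265, 112 and 185, then 165, 113 and 152, then 256, 195 and 319. The v-src arrays of WA and WB lay above all others, by 9.77-fold and 3.53-fold over the empty vector means, while in WC the v-src and empty vector arrays overlapped. On 1439747_at no empty vector or c-myc signal exceeded 118 in any line. The v-src signals on it were 1984, 1970.1 and 1480 in WA, 560 and 360 in WB, and 124, 116 and 150 in WC. On 1449449_at the v-src signals were 2268, 2073 and 1807 in WA and 523 and 360 in WB, against 35.9, 74.5 and 115 in WC, where the empty vector arrays read 84.9, 73.1 and 62.1.

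**Figure D2:**
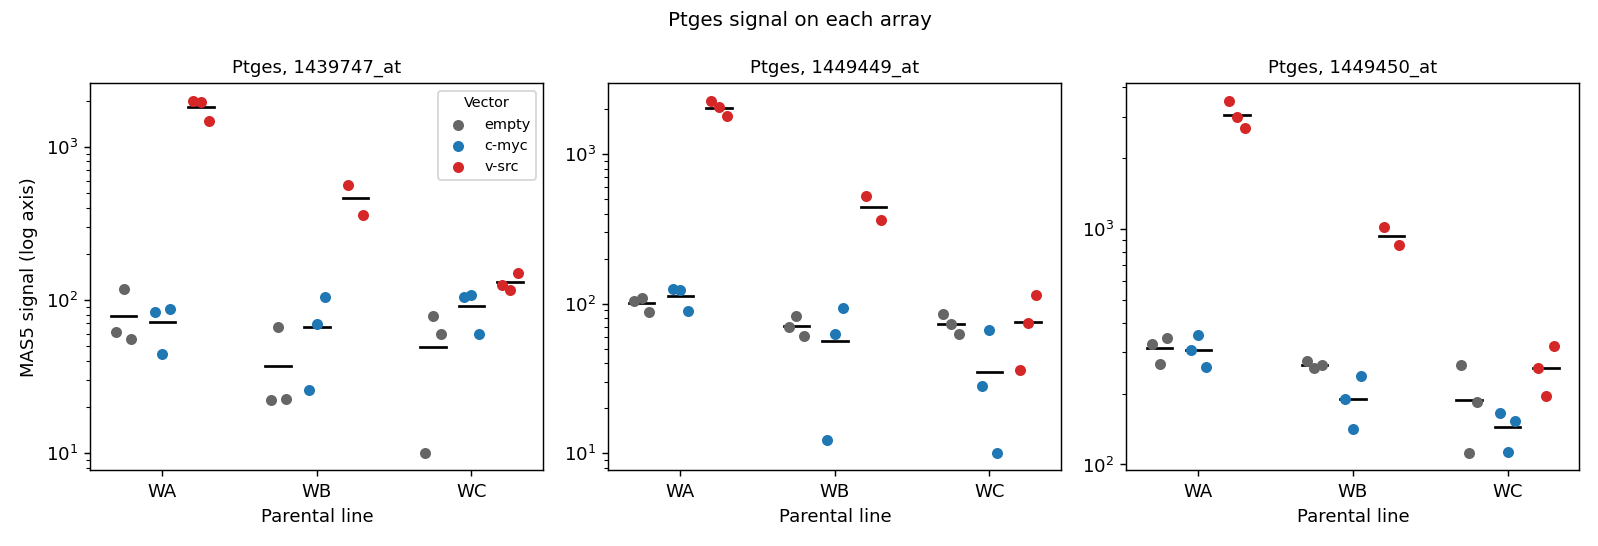
Signal of the 3 Ptges probe sets on each array (log axis), by line and vector, with bars at the group means. The v-src arrays of WA lie highest, those of WB next, and those of WC close to the arrays without v-src.

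Within WA, Ptges rose with v-src by 4.21 (SE 0.40, adjusted p = 3.70e-08) on 1439747_at, 4.07 (SE 0.37, adjusted p = 2.33e-08) on 1449449_at and 3.19 (SE 0.22, adjusted p = 2.91e-10) on 1449450_at. Within WB the rises were 3.06 (SE 0.44, adjusted p = 2.10e-05), 2.28 (SE 0.41, adjusted p = 0.000322) and 1.73 (SE 0.25, adjusted p = 1.77e-05). In WC 1439747_at was called at 1.22 (SE 0.40, adjusted p = 0.0377), and this call was lost without WC empty vector replicate 1 (0.279) or any of the 3 WC v-src arrays (0.0683 to 0.121). The other WC values were -0.05 (SE 0.37, adjusted p = 0.963) on 1449449_at and 0.45 (SE 0.22, adjusted p = 0.212) on 1449450_at, the latter called without WC empty vector replicate 1 (0.0312). The v-src difference varied between lines on all 3 probe sets, over ranges of 2.99 (F test adjusted p = 0.00377), 4.12 (5.03e-05) and 2.74 (1.28e-05). In the empty vector cells 1449450_at was lower in WC than in WA at -0.73 (adjusted p = 0.0245), lost without WA empty vector replicate 1 or 3 or WC empty vector replicate 2 (0.0701 to 0.185).

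Ptgis, the prostacyclin synthase that draws on the same substrate, differed mainly by line. Its signals in WA were 668, 576 and 587 with the empty vector, 458, 407 and 395 with c-myc, and 786, 707 and 622 with v-src. In WB they were 2814, 2529 and 3145, then 2896, 2650.3 and 2537, then 3677 and 3618. In WC they were 2065, 1667 and 1496, then 1842, 1180.1 and 848, then 1529, 1606 and 1441. Every WB array lay above every WC array, and every WC array above every WA array. With the empty vector the difference was 2.17 for WB over WA (adjusted p = 1.79e-09), 1.47 for WC over WA (adjusted p = 6.94e-07) and -0.70 for WC against WB (adjusted p = 0.00442). Line alone held 94.4% of the variance of the 9 means. Ptgis fell with c-myc in WA, with a difference of -0.51 (SE 0.17, adjusted p = 0.0345), and in WC, with -0.49 (SE 0.17, adjusted p = 0.0489). The WA call was lost without any 1 of 5 WA arrays (0.0510 to 0.122) and the WC call without any 1 of 24 arrays (0.0505 to 0.408). The WB value with c-myc was -0.07, and the v-src values were 0.20 in WA, 0.37 in WB and -0.18 in WC, none called.

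The receptor Ptger4 has 2 probe sets, and the brighter, 1424208_at, fell with c-myc in WA, rose with c-myc in WB and rose with v-src in both. On 1424208_at the WA arrays read 308, 286 and 208 with the empty vector, 143, 149 and 175 with c-myc, and 718, 705 and 655 with v-src. In WB they read 781, 765 and 682, then 1345, 1506 and 1497, then 1292 and 1381. In WC they read 194, 175 and 198, then 222, 243 and 262, then 212, 315 and 253. The WA groups were apart, with c-myc lowest and v-src highest. In WB both oncogenes lay above the empty vector and overlapped each other, and in WC both lay slightly above it. With c-myc this probe set fell in WA, at -0.69 (SE 0.14, adjusted p = 0.000587), and rose in WB by 0.94 (SE 0.14, adjusted p = 3.31e-05). Its WC value was 0.32 (SE 0.14, adjusted p = 0.118). With v-src it rose by 1.32 in WA (SE 0.14, adjusted p = 1.82e-07), 0.83 in WB (SE 0.15, adjusted p = 0.000402) and 0.40 in WC (SE 0.14, adjusted p = 0.0491), the last lost without any 1 of 20 arrays (0.0518 to 0.297). Both differences varied between lines, with F test adjusted p of 2.24e-05 for c-myc (range 1.63) and 0.0127 for v-src (range 0.91).

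The other Ptger4 probe set, 1421073_a_at, was dimmer. It read 37.4, 72.4 and 49.4 in WA with the empty vector, 26.5, 24.6 and 29.5 with c-myc, and 161, 149 and 162 with v-src. In WB it read 150.2, 141 and 130.3, then 298, 257 and 248, then 293 and 253, and in WC all 9 arrays lay between 9.3 and 50.5. It rose with v-src in WA by 1.27 (SE 0.26, adjusted p = 0.00106), and with c-myc in WB by 0.83 (SE 0.26, adjusted p = 0.0340), lost without any 1 of the 6 WB empty vector and c-myc arrays (0.0597 to 0.115). Its c-myc values of -0.59 in WA (adjusted p = 0.131) and -0.31 in WC, and its v-src values of 0.86 in WB (adjusted p = 0.0529) and 0.22 in WC, were not called. The WB v-src value was called when 1 of WA empty vector replicate 2, WC empty vector replicate 1, WC c-myc replicate 2 or WC c-myc replicate 3 was left out (0.0374 to 0.0489). The F test for c-myc gave an adjusted p of 0.0334 (range 1.41), lost without any 1 of 9 arrays (0.0522 to 0.0874). Ptger4 was also a line gene: with the empty vector both probe sets were higher in WB than in WA, by 1.13 (adjusted p = 0.00349) and 1.41 (adjusted p = 6.39e-08), and lower in WC than in WB, at -1.56 (adjusted p = 8.57e-05) and -1.85 (adjusted p = 4.91e-10). On 1424208_at WC was below WA at -0.44 (adjusted p = 0.0297), lost without WA empty vector replicate 1 or 2 or WC empty vector replicate 1 or 2 (0.0547 to 0.151). Line alone held 75.0% and 75.3% of the variance of the 9 means.

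Ptger2, the other cyclic AMP coupled receptor, and Hpgd, the breakdown enzyme, gave low signals. Ptger2 ran from 15.2 to 57.3 (median 27.6) with the empty vector, from 3.0 to 73.6 (median 32.0) with c-myc and from 23.6 to 78.0 (median 59.8) with v-src, all below the lowest array median. Hpgd has 2 probe sets, and 1419906_at ran from 4.0 to 71.2 over all 26 arrays. On 1419905_s_at the WC arrays were mostly above those of the other lines. Its signals were 177, 89.6 and 134 in WC with the empty vector, 109, 124 and 66.9 with c-myc and 206, 284 and 192 with v-src, while all 17 arrays of WA and WB read at most 75.1. Of the 9 WC arrays, 1 with c-myc fell within that range. With the empty vector WC exceeded WA by 1.48 (adjusted p = 0.0114) and WB by 1.26 (adjusted p = 0.0316). The first call was lost without WC empty vector replicate 1 (0.0646) and the second without any of WB empty vector replicates 1 and 3 and WC empty vector replicates 1 and 3 (0.0692 to 0.198). No Ptger2 or Hpgd probe set was called for a vector within any line.

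**Figure D3:**
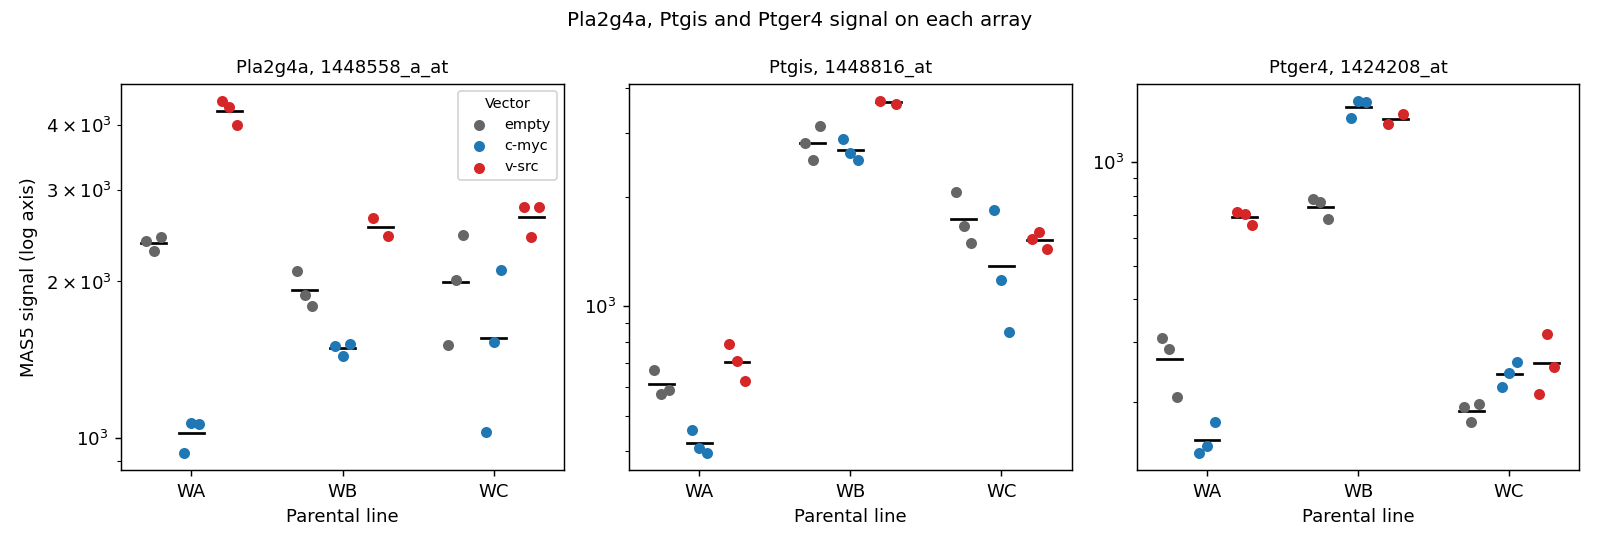
Signals of Pla2g4a, Ptgis and Ptger4 (1424208_at) on each array (log axis), by line and vector, with bars at the group means. Pla2g4a is lowest with c-myc and highest with v-src in each line, Ptgis is highest in WB and lowest in WA, and Ptger4 is highest in WB.

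Counted over the 12 probe sets, c-myc called 0 higher and 5 lower in WA, where 18.5% of all probe sets were called in either direction. In WB it called 4 higher and 0 lower (background 12.5%) and in WC 0 higher and 1 lower (background 18.0%). The WC count depended on single arrays: it was 0 without any 1 of 21 arrays and 3 without WC empty vector replicate 1 or WC c-myc replicate 3. v-src called 8 higher in WA (background 13.6%), 6 higher in WB (background 12.6%) and 3 higher in WC (background 14.5%), with 0 lower in each. The WC count fell to 1 without WC empty vector replicate 1, WC v-src replicate 1 or WC v-src replicate 2, and to 0 without WC v-src replicate 3. Leaving out WB v-src replicate 2 lowered the count over all probe sets in WB from 5667 to 3196, while the members called in WB stayed between 6 and 7 under every array left out. Several of these probe sets report 1 gene, so the counts are not of independent genes. The genes were chosen with earlier results of these data known, so a count above its background, here or below, is no test of an excess. The c-myc and v-src comparisons share their empty vector arrays.

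Between the empty vector lines, 5 of the 12 were called for WB against WA (background 12.4%), 4 for WC against WA (background 15.3%) and 5 for WC against WB (background 16.3%). The WC against WA count was 2 without WA empty vector replicate 1, WC empty vector replicate 1 or WC empty vector replicate 2, and the WC against WB count was 3 without WC empty vector replicate 3. The F test of a line-dependent difference called 5 of 12 for c-myc (background 6.41%), namely both Ptgs2, both Ptger4 and Pla2g4a, and this count was 3 without any 1 of 8 arrays of WA and WB. It called 5 of 12 for v-src (background 5.83%), namely all 3 of Ptges, 1 of Ptgs2 and 1 of Ptger4.

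**Figure D4:**
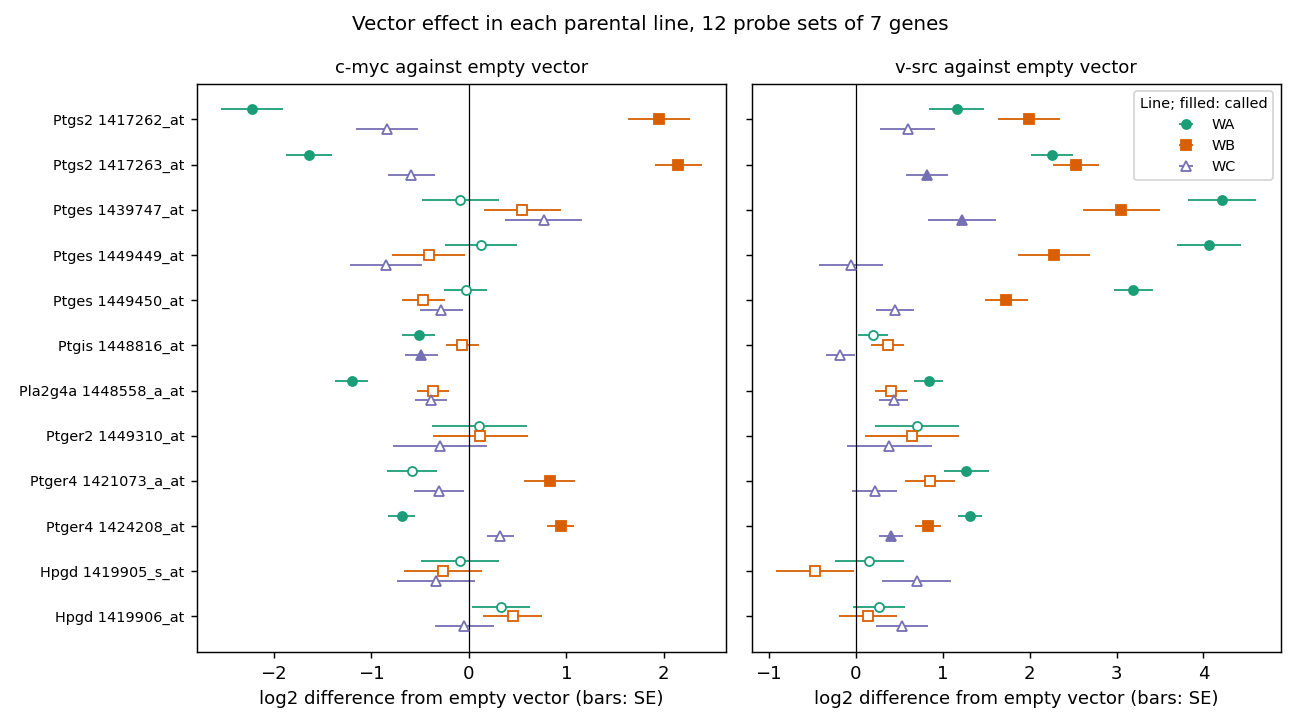
Difference from the empty vector on the log2(signal + 23) scale for each probe set in each line, with bars of 1 SE from the limma fit on 26 arrays. Ptgs2 and Ptger4 lie on opposite sides of 0 for c-myc in WA and WB, and Ptges has the largest v-src differences in WA and the smallest in WC.

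Over the 3 lines, arrays of each line and vector were averaged and the 9 averages fitted with line and vector, so that n = 3 lines. The 12 probe sets had a median c-myc difference of -0.13, against 0.06 for all probe sets, and limma called 0 of 12 (background 7.94%). At an unadjusted p under 0.05 there were 2, a count without a background share. With every array taken as a separate value, 2 of 12 were called, Pla2g4a and Ptgis. In that fit 10575 of all 45037 probe sets were called, so the background above does not apply to this count. It also treats arrays of 1 group as independent, although their spread may be technical. Ptgs2 averaged -0.37 (SE 0.65, adjusted p = 0.796) and -0.03 (SE 0.65, adjusted p = 0.988). The first turned to 0.55 without WA, and the second to 0.78 without WA and to 0.26 without WC. Pla2g4a was at -0.65 (SE 0.22, adjusted p = 0.118) and Ptgis at -0.36 (SE 0.13, adjusted p = 0.143). Ptges was at 0.41, -0.38 and -0.26, and Ptger4 at -0.02 on 1421073_a_at and 0.19 on 1424208_at, none called. The Ptger4 values turned to 0.26 without WA, 0.12 without WC and 0.060 with a pseudocount of 64 on the first probe set, and to -0.18 without WB on the second.

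For v-src the 12 had a median difference of 0.82, against 0.02 for all probe sets. At an unadjusted p under 0.05 there were 7, again without a background share. At the adjusted threshold 1 of 12 was called, higher (background 6.21%). This was Ptges 1439747_at at 2.83 (SE 0.59, adjusted p = 0.0295), higher in 3 of 3 lines. The call was lost with a pseudocount of 64 (0.0501), without the intensity trend (0.0574), without WA (0.104) and without WB (0.187). The other Ptges probe sets were at 2.10 (SE 0.63, adjusted p = 0.0938) and 1.79 (SE 0.44, adjusted p = 0.0523). The last was called without WC empty vector replicate 1, WA v-src replicate 1, WB v-src replicate 3 or WC v-src replicate 2, which made the count 2. Ptgs2 was at 1.25 (SE 0.65, adjusted p = 0.309) and 1.87 (SE 0.65, adjusted p = 0.141), higher in 3 of 3 lines on both probe sets, but not called. Pla2g4a was at 0.56 (SE 0.22, adjusted p = 0.185), Ptger4 at 0.78 (SE 0.35, adjusted p = 0.238) and 0.85 (SE 0.36, adjusted p = 0.220), and Ptgis at 0.13. With every array as a separate value, 8 of 12 were called, and 9500 of all 45037 probe sets. That fit too treats arrays whose spread may be technical as independent.

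The v-src cells stood furthest from the c-myc cells. The median difference was 1.01, against -0.03 for all probe sets, and 6 of 12 were called, all higher with v-src (background 12.3%). Ptges was higher by 2.42 (SE 0.59, adjusted p = 0.0326), 2.48 (SE 0.63, adjusted p = 0.0373) and 2.05 (SE 0.44, adjusted p = 0.0203). Pla2g4a was higher by 1.21 (SE 0.22, adjusted p = 0.0102) and Ptgis by 0.48 (SE 0.13, adjusted p = 0.0438). Ptger2 was called at 0.60 (SE 0.16, adjusted p = 0.0484) on signals below every array median, and lost the call without any 1 of 17 arrays (0.0504 to 0.301). Ptgis lost it without any 1 of 5 arrays (0.0511 to 0.109), and Ptges 1449449_at without WC c-myc replicate 3 or WC v-src replicate 3 (0.0501 and 0.0540). Without WC c-myc replicate 3 the count was 3, and without WA it was 1. Ptgs2 was at 1.62 (SE 0.65, adjusted p = 0.157) and 1.90 (SE 0.65, adjusted p = 0.104), not called. Without WB both were called, at 2.41 (adjusted p = 0.0274) and 2.65 (adjusted p = 0.0369). Its mean signal on 1417262_at was 10.6-fold higher with v-src than with c-myc in WA, 1.03-fold in WB and 2.41-fold in WC.

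Across the 9 group means, which share lines and arrays, the 2 Ptgs2 probe sets correlated at Pearson r = 0.96 and the 2 Ptger4 probe sets at 0.98. With Ptgs2 1417262_at, Pla2g4a correlated at 0.78, Ptges at 0.59 to 0.66, Ptger4 at 0.60 to 0.64, Ptgis at 0.25 and Hpgd 1419905_s_at at -0.10. With 1417263_at the same genes were at 0.79, 0.75 to 0.83, 0.54 to 0.60, 0.10 and -0.15. Ptger2, of low signal, was at 0.71 with 1417262_at and 0.78 with 1417263_at. These are descriptions of 9 points. Among 977 single-gene probe sets above the 40th percentile of mean level and with a standard deviation of at least 1 over the 9 means, those most like Ptgs2 were Bhlhe40, a transcriptional repressor, at 0.92, Dusp5 at 0.91, Pvr, an immunoglobulin-like cell surface receptor, at 0.88, Dusp6 at 0.86 and Has2, a hyaluronan synthase, at 0.84. Dusp5 and Dusp6 are phosphatases that switch off ERK kinases. These 5 values moved by no more than 0.01 with quantile normalization or pseudocounts of 8 and 64.

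The other genes of the pathway were read from the brightest probe set of each gene, for which the background over the lines was 10.5% for c-myc, 7.91% for v-src and 15.7% for v-src against c-myc, of 18193 genes. Their tests are those of the fit over the lines. Of the 56 genes with a probe set in 6 lists, 1 was called higher and 4 lower with c-myc, 6 higher and 2 lower with v-src, and 5 higher and 0 lower with v-src against c-myc. Of the 13 calls against the empty vector, 12 were lost with 1 or more lines left out, and that of Crem was not. Of 6 other prostanoid synthesis enzymes with a probe set, 1 was called, Ptges2, a second prostaglandin E synthase, at 0.50 (SE 0.12, adjusted p = 0.0368) with c-myc, lost without WC c-myc replicate 3 or WB v-src replicate 3 (0.0552 and 0.0572). The median of the 6 was 0.11 for c-myc and 0.09 for v-src, against 0.04 and 0.03 for all genes. None of 7 other prostanoid receptors was called with c-myc or v-src (medians 0.11 and 0.09), and none of 11 lipoxygenase and leukotriene genes (medians 0.18 and 0.19).

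**Figure D5:**
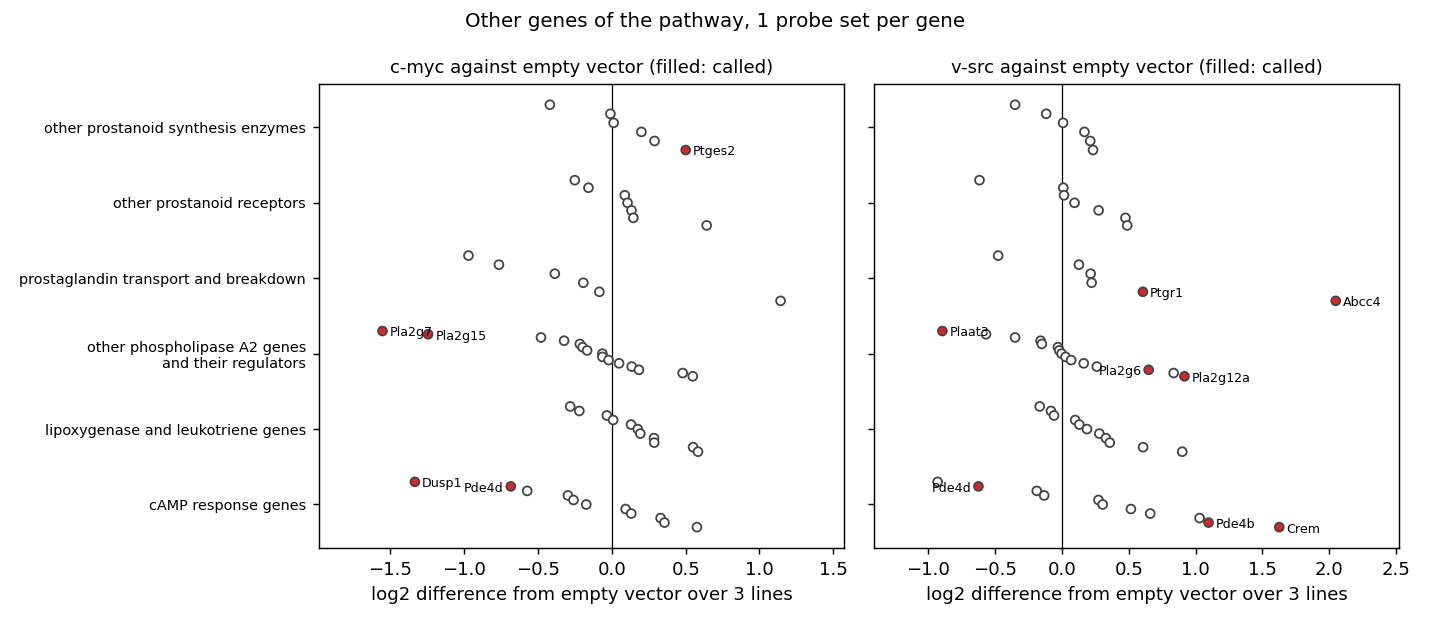
Difference from the empty vector over the lines (log2(signal + 23) scale) for each gene of the 6 pathway lists, c-myc and v-src side by side; filled points passed an adjusted p of 0.05. Most genes lie close to 0, with Abcc4 and Crem highest for v-src.

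Of 6 genes of prostaglandin transport and breakdown, 2 were called with v-src, both higher, and 0 with c-myc (medians 0.22 and -0.29). Abcc4, a pump that exports prostaglandins among other substrates, was higher by 2.05 (SE 0.30, adjusted p = 0.00748), at 2.95 in WA, 1.42 in WB and 1.78 in WC. Ptgr1, a reductase of prostaglandin metabolites, was higher by 0.61 (SE 0.15, adjusted p = 0.0484), a call lost without any 1 of 11 arrays (0.0511 to 0.0701), and by 0.99 against c-myc (adjusted p = 0.00474). Of 15 other phospholipase A2 genes and regulators, 2 were called lower with c-myc (median -0.06) and 2 higher and 1 lower with v-src (median 0.00). Pla2g7, which degrades platelet-activating factor, was lower with c-myc at -1.55 (SE 0.27, adjusted p = 0.0126), at -2.17 in WA, -1.58 in WB and -0.91 in WC. The lysosomal Pla2g15 was at -1.24 (SE 0.18, adjusted p = 0.00797). Against c-myc, v-src was higher by 2.39 for Pla2g7 (adjusted p = 0.00170) and by 1.41 for Pla2g15 (adjusted p = 0.00300). With v-src against the empty vector, Pla2g12a was higher by 0.92 (adjusted p = 0.0264), Pla2g6 by 0.65 (adjusted p = 0.0384) and Plaat3 lower at -0.90 (adjusted p = 0.0463). The Pla2g12a call was lost without the trend (0.0542) and with WA (0.144), WB (0.0575) or WC (0.122) left out. The Pla2g6 call was lost without any 1 of 9 arrays (0.0530 to 0.0860) and the Plaat3 call without any 1 of 8 (0.0514 to 0.0803).

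Of 11 genes known to respond to cyclic AMP, the second messenger of both E2 receptors here, 2 were called lower with c-myc (median -0.17) and 2 higher and 1 lower with v-src (median 0.30). Crem, a cyclic AMP responsive transcription factor gene, was higher with v-src by 1.63 (SE 0.17, adjusted p = 0.00250), at 1.51 in WA, 1.67 in WB and 1.69 in WC. Against c-myc it was higher by 1.89 (adjusted p = 0.000805). Of its 3 other probe sets, 1 was called higher with v-src and the others were not called. Pde4b, a phosphodiesterase that degrades cyclic AMP, was higher with v-src by 1.10 (SE 0.26, adjusted p = 0.0481), lost without any 1 of 7 arrays (0.0503 to 0.0556). None of its 5 other probe sets was called and 2 of them had the opposite sign. Pde4d was lower with both oncogenes, at -0.68 with c-myc (adjusted p = 0.0287) and -0.63 with v-src (adjusted p = 0.0456), the latter lost without any 1 of 7 arrays (0.0505 to 0.0659). Its 1 other probe set was at -0.10 and -0.06, not called. Dusp1, an immediate early phosphatase gene, was lower with c-myc at -1.33 (SE 0.31, adjusted p = 0.0351), at -2.19 in WA, -0.66 in WB and -1.15 in WC. This call was lost without the intensity trend (0.0776) and with WA (0.172), WB (0.0588) or WC (0.114) left out.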

How the data were processed

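The authors deposited a linear intensity (MAS5 signal, per the submitters' processing notes) for each of 45101 probe sets on 26 Affymetrix arrays of biotinylated cRNA. The MAS5 version and detection calls are not given in the sources used here. Groups and replicate numbers came from titles and characteristics. The free-text sample description speaks of embryos, another material, and was not used, and WB v-src replicate 1 was not analysed here. Of the probe sets, 64 were controls and left out. Of the others 34945 had 1 gene in the platform annotation, 932 several and 9211 were unlisted. RefSeq GRCm38.p6 knew the gene IDs of 34754 single-gene probe sets, and 0 symbols changed.

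From the deposited intensity, log2(signal + 23) was computed (23 is near the 20th percentile of all values, 22.8). This understates folds of dim probe sets. limma 3.58.1 (R 4.3.3, intensity trend) tested all 45037 probe sets with no filter. It fitted 9 averages by line and vector (4 residual and 4.42 prior degrees of freedom), so each probe set has 1 SE over the lines, or 26 arrays with 9 means (17 and 6.21). The number of arrays limits the precision. Tested on simulated data of 45037 probe sets (v-src against empty vector over the lines), 22 of 100 changes of size 1 and 92 of 100 of size 3 (log2) were recovered, with 0.0420 of calls false.

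Genes named were all 8 members with each probe set, the 5 most like Ptgs2 and, per pathway list, up to 4 with the largest called changes. Members and lists were chosen with earlier results of these data known. Ptges3, Akr1b3, Pla2g4b and Areg had no single-gene probe set. Alternatives were quantile normalization, pseudocounts of 8 and 64, a filter at the 40th percentile, 1 probe set per gene, no trend, arrays as separate values, a replicate block, and each line or array left out.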

Additional observations from a re-analysis of the deposited data

Results flagged for a closer look

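For the genes in this section the difference from the empty vector was not the same in the 3 lines by a limma F test on the 26 arrays, adjusted over all 45037 probe sets.

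With c-myc this held for both Ptgs2 probe sets (adjusted p = 5.00e-06 on 1417262_at and 3.41e-07 on 1417263_at), which fell in WA and rose in WB. It held for both Ptger4 probe sets (adjusted p = 0.0334 on 1421073_a_at and 2.24e-05 on 1424208_at), of which 1424208_at fell in WA and rose in WB. It also held for Pla2g4a (adjusted p = 0.0365), lower in all 3 lines but called in WA alone.

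With v-src it held for Ptgs2 on 1417263_at (adjusted p = 0.00483), for the 3 Ptges probe sets 1439747_at (adjusted p = 0.00377), 1449449_at (5.03e-05) and 1449450_at (1.28e-05), and for Ptger4 on 1424208_at (adjusted p = 0.0127). Each of these differences was largest in WA or WB and smallest in WC.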

How the results depend on the processing

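Of 1089 recomputed single-gene values, 948 kept their direction and side of the threshold, 90 lost a call, 41 gained one and 10 changed sign, apart from single arrays left out. Of 76 called values, 54 kept the call without any single array and 22 lost it, with 0 changes of sign. Leaving out WA empty vector replicate 3 and WC c-myc replicate 1 together, 2 of the 3 arrays with the lowest correlation to their group, was chosen after seeing the data. It moved the c-myc count in WC from 1 to 2 and turned Ptgs2 1417263_at with c-myc over the lines to 0.048. Other changes of sign were Ptgs2 with c-myc without WA (0.55 and 0.78) and, on 1417263_at, without WC (0.26), Ptger4 1421073_a_at with c-myc at a pseudocount of 64 (0.060), without WA (0.26) and without WC (0.12), and Ptger4 1424208_at without WB (-0.18). Hpgd 1419905_s_at with v-src went to -0.16 without WC, and Ptger4 1424208_at for v-src against c-myc to -0.017 without WA. None of these was called. With single arrays left out, uncalled values near 0 ran from -0.15 to 0.082 for Ptgs2 1417263_at and from -0.082 to 0.058 for Ptger4 1421073_a_at (c-myc over the lines), from -0.14 to 0.012 for Ptgis (c-myc in WB) and from -0.34 to 0.27 for Ptges 1449449_at (v-src in WC).

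Of the 12 probe sets, c-myc over the lines called 2 with arrays as separate values and 2 with the replicate block, against 0. v-src called 2 with a pseudocount of 8 or the filter, 0 with a pseudocount of 64, without the trend, without WA or without WB, 3 without WC, and 8 with separate arrays or the replicate block, against 1. v-src against c-myc called 3 without the trend, without WB or without WC, and 1 without WA, against 6. It also called 3 with 1 probe set per gene, but then at most 7 of the 12 are tested. That 3 is not on the same base as the 6. Over all lines, 5 of 25 same-number correlations were over 0.1 (from -0.14 to 0.20). Outside WC these correlations gave no sign of pairing by replicate number. They cannot show that arrays of the same number were handled apart, and the labels do not say. The replicate block is therefore not read as a paired design here. All 5 correlations over 0.1 were among the 9 pairs of WC and 0 among the 16 of WA and WB. In WC the same numbers had the lowest and the highest Ptgs2 and Pla2g4a signals in the empty vector and c-myc groups. With the replicate block the WC c-myc differences had limma adjusted p of 0.0589 and 0.0922 for Ptgs2 and 0.109 for Pla2g4a, not called. That block fits the same replicate effects to all 9 groups, so it cannot account for a pattern of WC alone. A fit paired within WC was not run. The c-myc count in WC was 0 with a pseudocount of 64 or without the trend and 2 with the filter or 1 probe set per gene. With 1 probe set per gene, fewer are tested, and counts became 2 for c-myc in WB, 4, 3 and 1 for v-src in WA, WB and WC, 3 for WB against WA and for WC against WB, and 3 and 2 for the F tests of c-myc and v-src.

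Without single arrays the counts ran from 1 to 2 for v-src and 3 to 6 for v-src against c-myc over the lines, 4 to 5, 3 to 4 and 0 to 3 for c-myc in WA, WB and WC, 6 to 7 and 0 to 4 for v-src in WB and WC, 2 to 6 for WC against WA, 3 to 6 for WC against WB, and 3 to 6 and 5 to 6 for the F tests of c-myc and v-src. Over all probe sets, c-myc over the lines called 1568 without the trend, 10575 with separate arrays, 10297 with the replicate block, and 241, 1560 and 210 without WA, WB and WC, against 3578. v-src called 1749 with 1 probe set per gene, 1739 without the trend, 9500 with separate arrays, 9109 with the replicate block, and 958, 733 and 717 without WA, WB and WC, against 2799. v-src against c-myc called 3325 with 1 probe set per gene, 11657 with separate arrays, 11430 with the replicate block, and 2155, 2704 and 1407 without WA, WB and WC, against 5526. With 1 probe set per gene fewer probe sets are tested, so the 1749 and 3325 above are not on the same base as the main counts. The same holds within lines. There the counts with 1 probe set per gene were 4889, 3511 and 4837 for c-myc in WA, WB and WC. They were 3560, 3320 and 3765 for v-src in the same order, and 3395, 3881 and 4232 for WB against WA, WC against WA and WC against WB. The v-src count in WB ran from 3196 to 6055 without single arrays. Where the construction does not show the cause, it was not tested.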
